A study of Mus musculus with 25 samples.

Results

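The step between embryonic day 11.5 (E11.5) and embryonic day 12.5 (E12.5) of mouse liver development was described from 4 arrays of the 25 in the series, chosen by their titles: 2 repeat arrays of the E12.5 pool and 2 of the E11.5 pool. Each stage was 1 pool of whole livers from untreated C57/B6 mice, with 9 livers at E12.5 and 12 at E11.5, dissected under a microscope and pooled before RNA extraction. Noon of the day a vaginal plug was found counted as E0.5. The series covers 14 stages, and its later pools, E13.5 to E18.5 (3 to 9 livers each), birth to day 21 and adults of 18 weeks, enter here only for the course of the same genes and for the estimate of array-to-array spread. The 2 arrays of a stage measured the same pool, so every error below is the spread between repeat arrays and not between embryos, and differences of litter, sex or dissection between the pools cannot be told apart from the day of development.

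In the mouse, the liver bud is formed by hepatoblasts that grow into the surrounding mesenchyme, and blood progenitors enter it at about this time and make it the main site of red cell formation before birth. The first red cells of the embryo come from the yolk sac, carry embryonic globins and circulate through the bud. Definitive red cells made in the liver carry adult globins, take up iron through the transferrin receptor, make heme in their mitochondria and assemble a membrane skeleton as they mature. The transcription factors GATA1, TAL1 and KLF1 drive this maturation, and erythropoietin acts on it through its receptor and the kinase JAK2.

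Levels are given as the log2 of the deposited intensity, where the median gene lay at 6.17 over the 4 arrays and the top 10% of genes began at 9.01. Of 18194 genes measured, 312 were higher at E12.5 than at E11.5 (1.71%) and 190 were lower (1.04%), which together makes 2.76% of genes called. A call required both a 2-fold difference, which is 1 log2 unit, and a limma p below 0.05 after Benjamini-Hochberg adjustment. The called rises had a median of 1.27 log2 units and reached 3.67, and the called falls had a median of -1.13 and reached -1.70. At an adjusted p under 0.05 without regard to size, 1049 genes were higher (5.77%) and 2313 were lower (12.7%). The balance between the directions depended on the arrays and on scaling: without E12.5 array 1 there were 193 higher and 360 lower genes, and without E12.5 array 2 there were 486 and 105. Quantile normalization gave 357 higher and 75 lower genes, equal 75th percentiles 410 and 109, and equal levels of housekeeping genes 509 and 73. The median change of all genes was -0.04 as deposited, 0.07 under equal 75th percentiles and 0.14 under equal housekeeping levels. Changes are therefore read beside the median of all genes, and counts of called list members beside the 1.71% higher and 1.04% lower of all genes. For genes that lost their call under a scaling or without an array, some of those values are given below, not all. These falls lost their call under both quantile normalization and equal housekeeping levels: Col18a1, Fcna, Gp1bb, Gp5, Gusb, Ier2, Krt8, Nr2f1, Tubb2b, Xist and Zfpm1.

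**Figure D1:**
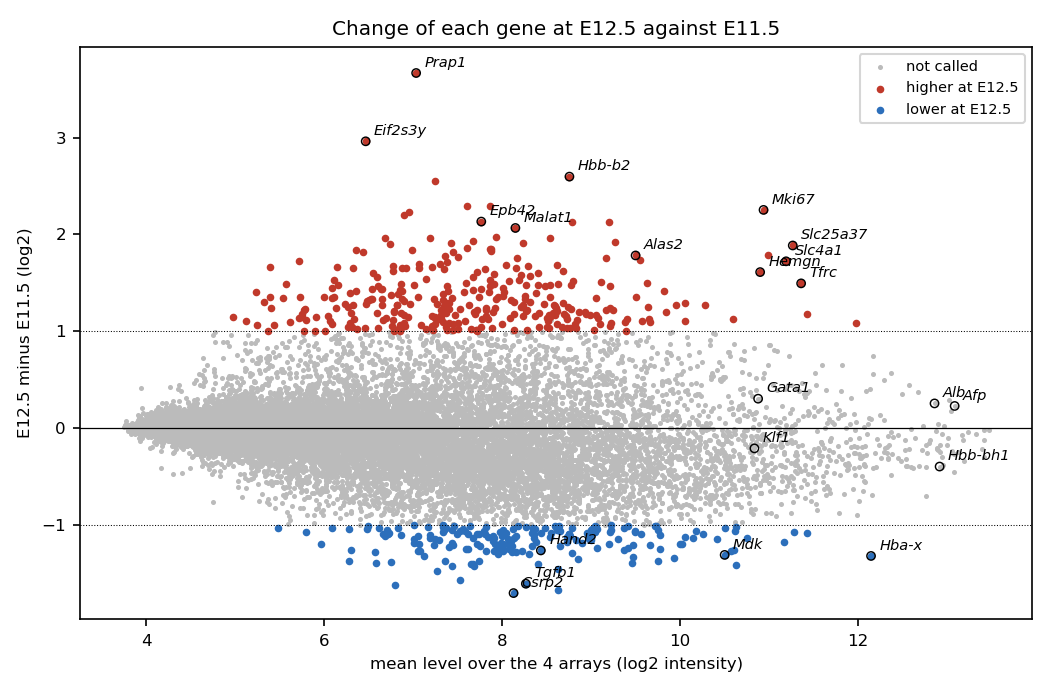
Each point is a gene, with its mean level over the 4 arrays on the x axis (log2 intensity) and E12.5 minus E11.5 on the y axis (log2). Red points are the 312 genes higher at E12.5, blue points the 190 lower, grey points were not called, dotted lines mark 1 log2 unit, and circled points are named. Prap1 stands at the top with 3.67, and the red cell genes Slc25a37, Slc4a1, Hemgn and Tfrc lie among bright genes.

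The size of the step can be set beside the other fetal days, each measured the same way. At E13.5 against E12.5 34 genes were higher and 155 lower (1.04%). Between E14.5 and E13.5 8 genes were called (0.044%), while E15.5 against E14.5 gave 446 (2.45%). The step to E16.5 gave 43 (0.236%), the step to E17.5 136 (0.747%) and the step to E18.5, with 1 array at E18.5, 749 (4.12%). The number of calls at E12.5 thus lay between those of the steps to E18.5 and to E15.5.

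Of the globin genes 1 embryonic gene was lower at E12.5 and 1 adult gene was higher. Hba-x, the embryonic alpha-like globin zeta, read 11.67 and 11.30 on the E12.5 arrays, against 12.84 and 12.77 on the E11.5 arrays. It fell by 1.32 ± 0.15 log2 units (SE; adjusted p = 4.71e-05, limma), and the arrays of the stages did not overlap. Hbb-bh1, an embryonic beta-like globin, read 12.84 and 12.60 at E12.5, against 13.04 and 13.19 at E11.5, a difference of -0.40 ± 0.22 (adjusted p = 0.275), and its other sets gave -0.79 and -0.87. Hbb-y, the embryonic epsilon globin, read 13.42 and 13.10 at E12.5, against 13.70 and 13.42 at E11.5, a difference of -0.30 ± 0.16 (adjusted p = 0.25), while its other sets gave 0.08 and 0.03. Both stayed among the brightest genes of the array, and of the 3 embryonic globins 1 was called. Hbb-b2, an adult beta globin, read 10.22 and 9.89 at E12.5, against 7.48 and 7.44 at E11.5, and rose 6.05-fold (2.60 ± 0.17 log2 units, adjusted p = 5.66e-07).

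The rise of Hbb-b2 rests on 1 probe set whose probes can match near-identical beta globins, so it cannot be assigned to 1 adult gene. Without sets of that kind, Hbb-b2 was represented by a dim set and the sign was turned, with -0.41 log2 units (adjusted p = 0.0168). The sets for the adult alpha globins were dim on all 4 arrays: Hba-a1 read 5.48 and 5.54 at E12.5 and 5.48 and 5.46 at E11.5, and Hba-a2 read 4.42 and 4.48 at E12.5 and 4.56 and 4.44 at E11.5. These sets showed no difference at levels below that of the median gene, and say nothing of the adult alpha globin message. In the course over stages Hba-x had a mean of 9.50 at E13.5, 10.61 in the E14.5 pool and 7.13 in the E15.5 pool, so E14.5 stood above E13.5. Hbb-b2 averaged 10.39 at E13.5 and lay between 10.64 and 11.02 in the pools from E14.5 to E18.5.

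The enzymes and carriers of heme synthesis were higher at E12.5 in part. Of 14 genes measured, 4 were higher (28.6%, beside 1.71% of all genes) and none was lower. The other 10 were not called, and all 14 changes were above 0, with a median of 0.42 beside -0.04 over all genes. Slc25a37 (mitoferrin, which brings iron into the mitochondria of red cell precursors) read 12.39 and 12.03 at E12.5, against 10.41 and 10.24 at E11.5. It rose 3.70-fold (1.89 ± 0.21 log2 units, adjusted p = 3.45e-05). Alas2, the red cell form of the enzyme that starts heme synthesis, read 10.40 and 10.39 at E12.5, against 8.67 and 8.55 at E11.5, and rose 3.44-fold (1.78 ± 0.18, adjusted p = 2.36e-05). For both genes the lower E12.5 array lay more than 1.5 log2 units above the higher E11.5 array. Abcb10, a mitochondrial transporter that stabilises mitoferrin, read 10.70 and 10.47 at E12.5, against 9.42 and 9.21 at E11.5 (2.42-fold, adjusted p = 0.000162). Its dimmer sets gave 0.64 and 0.22, and its call was lost with the mean of probe sets. Ppox, a late enzyme of the pathway, read 9.36 and 9.03 at E12.5, against 8.22 and 8.07 at E11.5, with a change of 1.05 that came to 0.88 without E12.5 array 1 and 0.97 without E11.5 array 2, which is under the threshold of 1. Fech, which inserts iron into the ring as the last step, read 11.16 and 10.92 at E12.5 and 10.43 and 10.23 at E11.5, and its change of 0.71 ± 0.19 (adjusted p = 0.0144) was smaller than 2-fold. Urod read 11.51 and 11.25 at E12.5 and 11.03 and 10.93 at E11.5 (0.40, adjusted p = 0.279), and the carrier Slc25a39 differed by 0.04.

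Genes of the red cell membrane and its skeleton showed the highest median of the red cell lists, 0.59. Of 20 measured, 4 were higher (20%, beside 1.71% of all genes), none was lower and 17 changes were above 0. At an adjusted p under 0.05 without regard to size, 12 of the 20 were higher, beside 5.77% of all genes. Epb42, protein 4.2 of the membrane skeleton, read 9.10 and 8.57 at E12.5, against 6.63 and 6.77 at E11.5, and rose 4.39-fold (2.13 ± 0.22 log2 units, adjusted p = 2.56e-05). Kel, the Kell blood group protein, read 10.59 and 10.25 at E12.5, against 8.72 and 8.64 at E11.5 (3.33-fold, adjusted p = 4.67e-05). Slc4a1, the anion exchanger band 3, read 12.20 and 11.90 at E12.5, against 10.41 and 10.25 at E11.5 (3.30-fold, adjusted p = 0.00018). In these 3 genes every E12.5 array exceeded every E11.5 array by over 1 log2 unit. Dmtn, the actin-bundling protein dematin, read 9.37 and 8.86 at E12.5, against 7.91 and 7.75 at E11.5 (2.44-fold, adjusted p = 0.000442). Its dimmer sets gave 0.43 and 0.16, and its call was lost with the mean of probe sets. Rhag, the Rhesus-associated glycoprotein, read 10.93 and 10.51 at E12.5 and 10.12 and 10.12 at E11.5, a change of 0.60 ± 0.22 (adjusted p = 0.075). Ermap, a red cell adhesion protein, changed by 0.70 ± 0.21 (adjusted p = 0.0264), below 2-fold. A second probe set of Slc4a1 gave 1.85 and a second set of Epb42 gave 1.06.

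Among 21 genes of late red cell maturation, 4 were higher (19%, beside 1.71% of all genes) and none was lower, with a median of 0.24. Hemgn, a nuclear protein of erythroid cells, read 11.87 and 11.54 at E12.5, against 10.19 and 10.002 at E11.5, and rose 3.05-fold (1.61 ± 0.22 log2 units, adjusted p = 0.000144). Ypel4 read 7.47 and 7.22 at E12.5, against 5.62 and 5.88 at E11.5 (3.03-fold, adjusted p = 3.36e-05). Trim10, known in the mouse for its part in terminal red cell maturation, read 9.74 and 9.54 at E12.5, against 8.57 and 8.44 at E11.5 (2.20-fold, adjusted p = 0.00195). Ube2l6, a conjugating enzyme for ubiquitin-like proteins, changed by 1.07 ± 0.23 and came to 0.89 without E12.5 array 1, 0.84 without E11.5 array 2 and 0.95 under quantile normalization. The brightest members were not called: Car2, carbonic anhydrase 2, changed by 0.56 (adjusted p = 0.0811) and Gpx1, glutathione peroxidase 1, by 0.37 (adjusted p = 0.291).

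The regulators of red cell formation moved less evenly. Of 22 transcription factors and receptors 4 were higher (18.2%) and 1 was lower (4.55%), beside 1.71% and 1.04% of all genes. The median change of the list was 0.12. Sox6, a repressor of embryonic globin genes in the mouse, read 8.94 and 8.67 at E12.5, against 6.72 and 7.18 at E11.5 (3.61-fold, adjusted p = 4.13e-05), and 0.93 on the set used when sets of shared probes were left out. E2f2, a cell cycle regulator, read 8.29 and 8.04 at E12.5, against 6.50 and 6.54 at E11.5 (3.13-fold, adjusted p = 3.43e-05). Tfrc, the transferrin receptor, read 12.28 and 11.93 at E12.5, against 10.73 and 10.50 at E11.5 (2.82-fold, adjusted p = 0.00045). These genes had no overlap between the stages. Jak2 changed by 1.03 ± 0.17, and by 0.92 without E12.5 array 1 and 0.95 without E11.5 array 1. Tal1, a factor of the GATA1 complex, read 10.73 and 10.37 at E12.5 and 9.66 and 9.56 at E11.5, a change of 0.94 ± 0.21 (adjusted p = 0.00453) that passed 1 log2 unit in 3 other scalings (1.19 under quantile normalization) and without E12.5 array 2 (1.13).

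GATA1 itself showed no call. Gata1 read 11.22 and 10.84 at E12.5 and 10.85 and 10.60 at E11.5, a difference of 0.30 ± 0.17 (adjusted p = 0.265) with overlapping arrays. Klf1 read 10.78 and 10.68 at E12.5 and 11.04 and 10.84 at E11.5 (-0.21 ± 0.16, adjusted p = 0.459). Epor, the erythropoietin receptor, read 9.50 and 9.35 at E12.5 and 9.17 and 9.16 at E11.5 (0.26 ± 0.14, adjusted p = 0.271). All 3 were already well above the median gene at E11.5. Zfpm1, the GATA1 partner FOG1, read 9.01 and 8.81 at E12.5, against 10.003 and 9.85 at E11.5, and fell by 1.02 ± 0.14. Its change lay under 1 log2 unit in all 4 other scalings (-0.83 under equal housekeeping levels), without E12.5 array 2 (-0.91) and without E11.5 array 1 (-0.94). Kit, the receptor of early progenitors, read 8.57 and 8.08 at E12.5 and 9.26 and 9.00 at E11.5, a difference of -0.80 ± 0.20 (adjusted p = 0.0103) that passed the threshold only without E12.5 array 1 (-1.05).

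**Figure D2:**
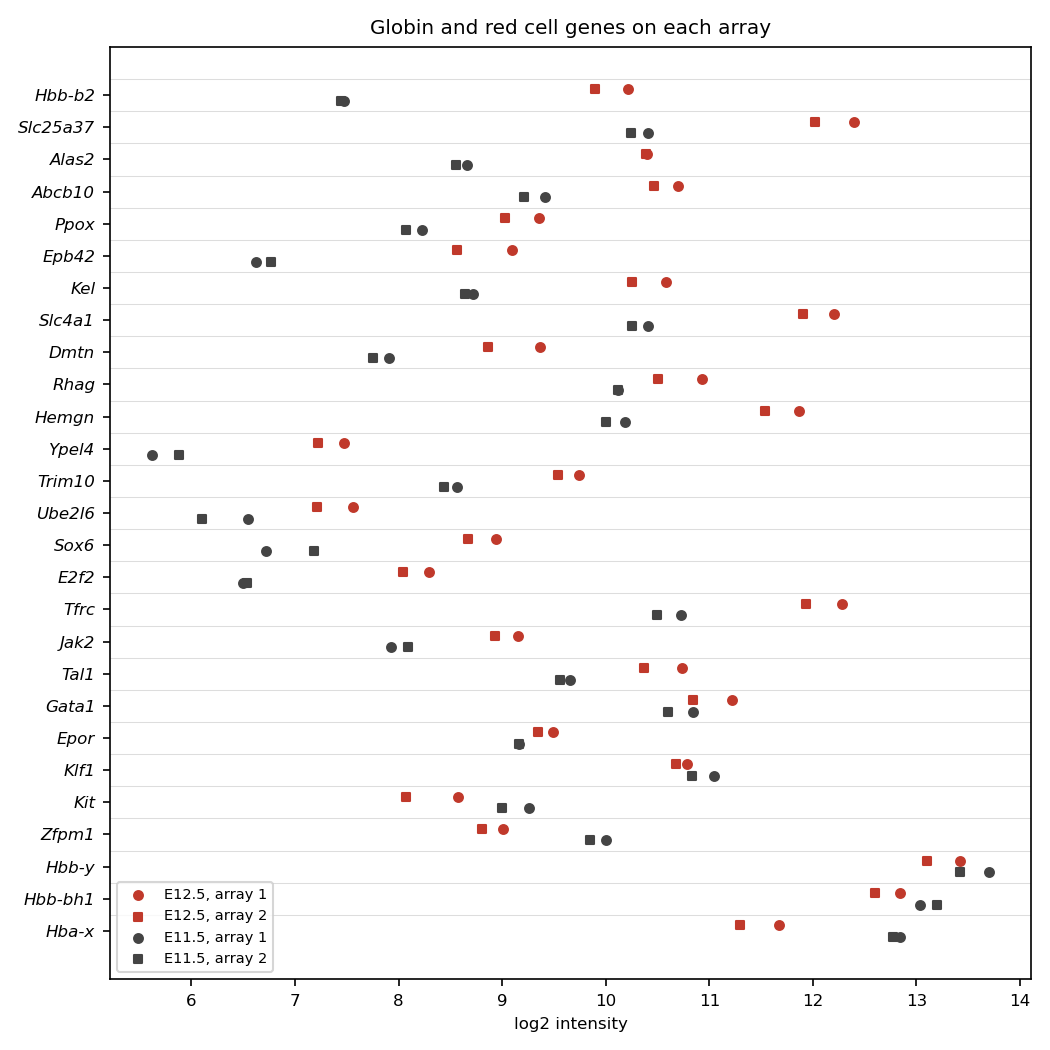
The 27 globin and red cell genes are rows and the x axis is log2 intensity, with E12.5 arrays in red above E11.5 arrays in dark grey (circles array 1, squares array 2). The red points lie to the right of the grey points from Hbb-b2 to Tal1 and in Epor, and overlap them in Gata1. They lie to the left in Klf1, Kit, Zfpm1, Hbb-y, Hbb-bh1 and Hba-x, of which Zfpm1 and Hba-x were called.

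Taking the 4 red cell lists as 1 group of 77 different genes, 16 were higher (20.8%, beside 1.71% of all genes) and 1 was lower, with a median change of 0.38. Between 12 and 21 of the 77 were higher in the 17 alternative settings. The lists were drawn up with earlier results of these data known, so this count describes the genes and is no independent evidence of their direction. In whole liver, more red cell precursors and more of the message per cell cannot be told apart.

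The 300 bases around the annotated start were read for 4 of 6 red cell genes, since Alas2, Epb42 and Hemgn rose together while Klf1, which encodes the factor that binds CACCC boxes, did not change. They are printed 5′ to 3′ on the strand of the gene, 250 bases before to 50 after the start, from RefSeq with build GRCm38.p6. Capitals mark matches on either strand to a GATA motif (AGATAA, where the first base may also be T and the last may also be G) or to CCACCC, the core of a KLF site. The windows were Alas2 at chrX:150547167-150547466 on the plus strand, Epb42 at chr2:121036828-121037127 on the minus strand, Hemgn at chr4:46404134-46404433 on the minus strand and Klf1 at chr8:84901732-84902031 on the plus strand.
Alas2: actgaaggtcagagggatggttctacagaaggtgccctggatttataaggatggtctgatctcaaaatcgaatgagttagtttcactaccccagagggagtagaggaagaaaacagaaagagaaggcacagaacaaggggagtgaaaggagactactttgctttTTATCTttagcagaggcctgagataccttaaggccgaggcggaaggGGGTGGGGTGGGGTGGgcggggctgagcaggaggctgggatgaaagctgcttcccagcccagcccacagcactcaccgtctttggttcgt
Epb42: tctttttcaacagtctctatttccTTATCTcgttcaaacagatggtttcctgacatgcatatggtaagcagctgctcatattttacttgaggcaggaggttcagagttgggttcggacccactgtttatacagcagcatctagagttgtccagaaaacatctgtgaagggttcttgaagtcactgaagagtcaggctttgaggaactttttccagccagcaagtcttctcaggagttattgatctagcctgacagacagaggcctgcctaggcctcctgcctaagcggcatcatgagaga
Hemgn: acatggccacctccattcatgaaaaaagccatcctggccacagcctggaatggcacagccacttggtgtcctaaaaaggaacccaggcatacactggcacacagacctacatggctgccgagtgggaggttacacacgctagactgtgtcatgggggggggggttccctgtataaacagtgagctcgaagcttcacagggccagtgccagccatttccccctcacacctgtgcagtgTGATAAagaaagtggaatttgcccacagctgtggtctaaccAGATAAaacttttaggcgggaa
Klf1: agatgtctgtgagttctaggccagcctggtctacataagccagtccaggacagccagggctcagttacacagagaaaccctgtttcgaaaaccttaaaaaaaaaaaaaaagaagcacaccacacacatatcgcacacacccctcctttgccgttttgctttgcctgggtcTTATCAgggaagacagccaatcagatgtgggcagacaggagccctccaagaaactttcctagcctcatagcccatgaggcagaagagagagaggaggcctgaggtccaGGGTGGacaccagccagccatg
Alas2 held 1 GATA match 86 bases before the start and 3 matches to CCACCC, each sharing a base with the next and first reached 40 bases before the start. Epb42 held 1 GATA match and no match to CCACCC. Hemgn held 2 GATA matches, 13 bases before and 28 bases after the start, and none to CCACCC. Klf1, which was not called, held 1 of each. Of all 32851 promoter windows of this length 29.8% held a GATA match, 31.5% held CCACCC and 7.4% held both, so a match is frequent by itself, and none of these matches is shown to be bound.

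Changes within the lists of cell division ran in both directions. Of 33 mitosis genes 5 were higher (15.2%) and none was lower, beside 1.71% and 1.04% of all genes, with a median of 0.08. At an adjusted p under 0.05 alone 10 were higher and 3 lower, beside 5.77% higher and 12.7% lower of all genes. The share lower was thus not above that of all genes. Of 36 DNA replication genes 1 was higher (2.78%) and none was lower, with a median of -0.06. Mki67, the marker Ki-67 that coats mitotic chromosomes, read 12.19 and 11.94 at E12.5, against 9.85 and 9.77 at E11.5, and rose 4.77-fold (2.25 ± 0.23 log2 units, adjusted p = 2.2e-05). Ncapg, a condensin subunit, read 8.30 and 7.93 at E12.5, against 6.66 and 6.64 at E11.5 (2.76-fold, adjusted p = 3.13e-05). Nusap1 and Cenpe, proteins of the spindle and the kinetochore, rose 2.44-fold and 2.27-fold. Bub1, a spindle checkpoint kinase, changed by 1.11 ± 0.30, with an adjusted p of 0.127 without E12.5 array 1 and of 0.0802 and 0.0804 without either E11.5 array. Ccne2, cyclin E2, read 9.39 and 8.81 at E12.5, against 7.50 and 7.56 at E11.5 (2.97-fold, adjusted p = 0.000177).

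Other dividing-cell genes did not follow. Pcna, the sliding clamp of DNA replication, read 12.49 and 12.22 at E12.5 and 12.48 and 12.30 at E11.5 (-0.04). Cdc20, an activator of mitotic exit, changed by -0.25 (adjusted p = 0.426) on its brightest set, and its other sets gave -0.99 and -0.56. Named after their values were seen, Aurkb changed by -0.78, Ube2c by -0.55 and Cenpa by -0.52, each at an adjusted p under 0.05, while Ect2 changed by 0.90 and Ndc80 by 0.83. The 20 mitosis genes longer than the median gene had a median change of 0.60 and held all 5 called genes, and the 13 shorter ones had a median of -0.31. In the red cell lists the split differed. The erythroid transcription factors and receptors had all 4 of their higher genes among genes longer than the median, with median changes of 0.34 in longer and -0.03 in shorter genes. Heme synthesis had 3 of its 4 among longer genes, with medians of 1.03 and 0.30. The membrane list had 1 of its 4 among longer genes, with medians of 0.55 and 0.73, and late maturation had none, with medians of 0.05 and 0.54.

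Gene length was also set beside the change over all genes. The span of a gene is its length on the genome, introns included, from RefSeq. The genes called higher had a median span of 41018 bases and those called lower 10506 bases, beside 20218 bases over all genes. With genes split by span into 5 equal sets, in the longest set 2.78% were higher and 0.441% lower, and in the shortest set 0.551% were higher and 1.60% lower. The rank correlation of change and span across 18143 genes was 0.133, a description of genes that share the 4 arrays. With a smooth trend in span removed from each array, an alternative chosen after seeing the data, 329 genes were higher and 147 lower, and of the 77 red cell genes 17 were higher.

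A sign of RNA quality or labelling moved with the step as well. The arrays carry sets near the 3′ and the 5′ ends of Actb and Gapdh, and their difference in log2 units grows when fewer copies reach the 5′ end. The Actb difference was 1.04 and 0.97 on the E12.5 arrays, against 0.59 and 0.59 on the E11.5 arrays. The Gapdh difference was 0.83 and 0.91 at E12.5, against 0.21 and 0.22 at E11.5. The pools of E13.5 and E14.5 had values like those of E12.5 (Gapdh 0.84 and 0.81), and E15.5 was like E11.5 (0.21). The part of this difference in the calls was not tested.

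**Figure D3:**
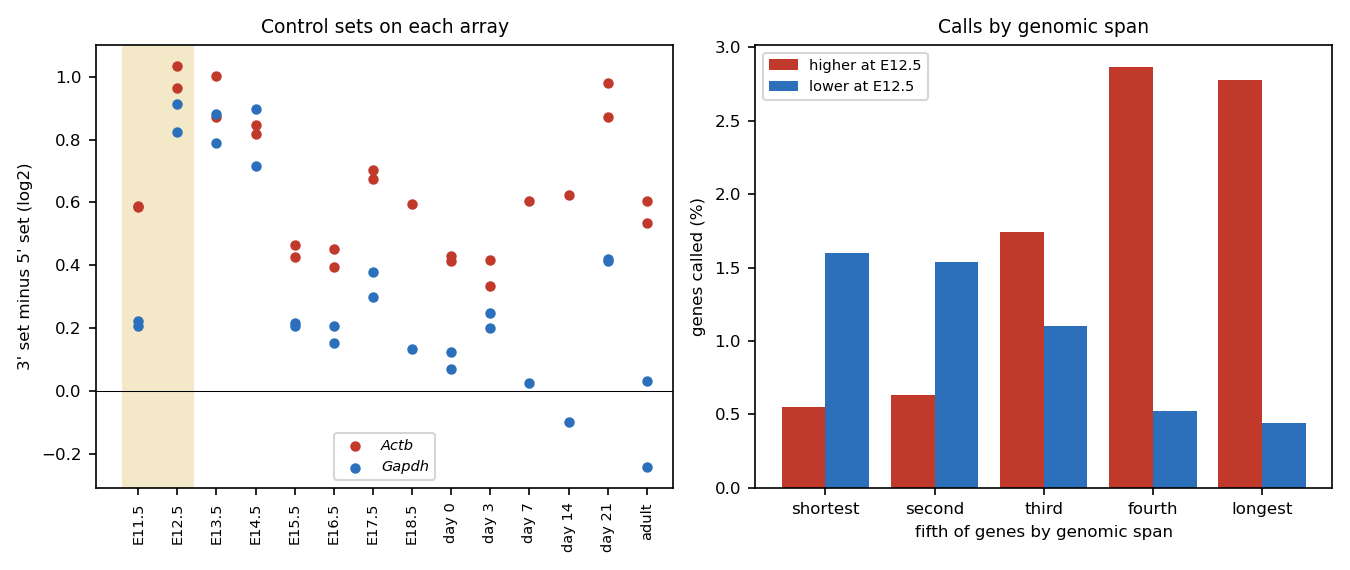
Left, 3′ minus 5′ difference of the Actb and Gapdh control sets (log2) on each array at the 14 stages, with the stages compared here shaded. Right, percent of genes called higher (red) and lower (blue) at E12.5 in 5 equal sets of genes by genomic span. The control differences of E12.5, E13.5 and E14.5 stand above those of E11.5 and E15.5, and the share of higher genes is largest in the next to longest set (2.87%).

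Several of the largest rises came from outside the red cell lists. Prap1, which encodes a proline-rich acidic protein, read 9.11 and 8.62 at E12.5, against 5.17 and 5.23 at E11.5, and rose 12.7-fold (3.67 ± 0.13 log2 units, adjusted p = 6.7e-10). Its other probe set gave 3.78. At the other 13 stages its level averaged between 5.20 and 5.98, so E12.5 exceeded each other stage by at least 2.89 log2 units. Genes with an E12.5 level at least 1 log2 unit above every other stage numbered 3, with Tmem47 (1.07) and Epha3 (1.003) as the others, and 90 genes stood that far above every other stage at E11.5. These were named for their place in the series, after their values were seen.

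The nuclear noncoding RNA Malat1 read 9.40 and 8.96 at E12.5, against 7.05 and 7.18 at E11.5 (4.19-fold, adjusted p = 7.61e-06). Cpeb4, an RNA-binding protein of the cytoplasm, rose 4.38-fold, and Tent5c, which extends poly(A) tails, rose 3.94-fold. Ncapg2, a condensin subunit, rose 4.36-fold and Depdc1a, a mitotic gene, 4.71-fold. Apol8 rose 5.86-fold, Nxpe2 4.88-fold, 5430401H09Rik 4.90-fold, Fcho2, an endocytic protein, 4.58-fold, and Zfp280d, a zinc finger gene, 3.91-fold. With Epb42, Hbb-b2, Mki67, Prap1 and Eif2s3y these are the 15 largest called rises.

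Eif2s3y, a gene of the Y chromosome, was the second largest rise. It read 8.17 and 7.72 at E12.5, against 4.94 and 5.03 at E11.5 (7.79-fold, adjusted p = 2.29e-05). Xist, the noncoding RNA of the inactive X chromosome, read 8.35 and 8.45 at E12.5, against 9.63 and 9.46 at E11.5, and fell by 1.14 ± 0.18, under the threshold with quantile normalization (-0.99) and equal housekeeping levels (-0.96). The Y-linked genes Uty and Kdm5d changed by 0.48 (adjusted p = 0.0222) and 0.22 (adjusted p = 0.291) on their chosen sets, which were dim, and by 1.39 and 1.06 on the other set of each with the largest change. Both pools had Xist above the median gene, the E12.5 pool with a higher Y-linked and a lower Xist level. Across the later pools Eif2s3y ranged from 4.14 at E15.5 to 7.92 at E16.5, so the level of Y-linked message differed between pools along the series.

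Hepatoblast and hepatocyte lists are read beside the 1.71% higher and 1.04% lower of all genes. Alb, serum albumin, read 13.10 and 12.87 at E12.5 and 12.86 and 12.61 at E11.5 (0.26 ± 0.21, adjusted p = 0.523). Afp, alpha-fetoprotein, read 13.39 and 13.01 at E12.5 and 13.01 and 12.94 at E11.5 (0.23, adjusted p = 0.529). Ttr, the thyroxine carrier transthyretin, differed by -0.06 and Dlk1, a surface marker of hepatoblasts, by -0.27. None of these left the top 1% of genes, which began at 11.55. Of 20 hepatoblast and fetal liver genes 1 was called lower (5%, beside 1.04% of all genes) and none higher. Krt8, a keratin of liver epithelium, read 8.18 and 8.04 at E12.5, against 9.21 and 9.12 at E11.5. It fell by 1.05 ± 0.17, with -0.98 without E12.5 array 2 and -0.87 under equal housekeeping levels. Of 29 hepatocyte lineage transcription factors none was called and at an adjusted p under 0.05 alone 7 were lower and none was higher, beside 12.7% and 5.77% of all genes. Hnf4a, a master regulator of hepatocytes, changed by -0.36 (adjusted p = 0.25), Cebpa by -0.37 (adjusted p = 0.209) and Prox1 by -0.09. Among 29 plasma proteins 1 was higher (3.45%, beside 1.71% of all genes) and none was lower. This was Apob, the protein of very low density lipoproteins, with 9.79 and 9.77 at E12.5, against 8.64 and 8.48 at E11.5 (2.33-fold, adjusted p = 0.000623). No member of 52 hepatocyte enzymes, 22 clotting factors or 19 cholesterol genes was called, beside 2.76% of all genes. In the complement list of 25 Hc (complement C5) was called higher and Fcna (ficolin A) lower (4% each). Hc came to 0.81 without E11.5 array 1, and Fcna, at -1.0006, to -0.89 without E12.5 array 2 and -0.96 without E11.5 array 1.

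The working name of this step, an erythroid takeover of the liver bud, fitted these values in part. In each of the lists of heme synthesis, the red cell membrane and late maturation 4 genes were higher and the others were not called. Of 22 erythroid transcription factors and receptors 4 were higher and 1 was lower, and Gata1 and Klf1 were not called. The hepatoblast markers Alb, Afp, Ttr and Dlk1 were not lower by the test, while Krt8 of the same list was called lower. Of the 20 genes of that list 4 were lower and 1 was higher at an adjusted p under 0.05 alone, beside 12.7% and 5.77% of all genes. The step is therefore called here by its 2 stages.

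Of 30 stellate and mesenchymal genes 3 were lower and none was higher, with a median of -0.20, beside 1.04% of all genes lower and a median of -0.04. Tcf21, a transcription factor of visceral mesenchyme, read 7.29 and 6.82 at E12.5, against 8.45 and 8.39 at E11.5 (-1.37 ± 0.16, adjusted p = 5.91e-05). Hand2, a factor of lateral mesoderm, read 7.90 and 7.71 at E12.5, against 9.08 and 9.06 at E11.5 (-1.26 ± 0.08, adjusted p = 5.66e-07). Nr2f1, an orphan nuclear receptor, read 6.22 and 6.15 at E12.5, against 7.32 and 7.22 at E11.5, with -0.87 under quantile normalization. Pdgfra, a receptor of mesenchymal cells, changed by -0.46 (adjusted p = 0.098), below the threshold. The sets of Vim, vimentin, disagreed: the brightest changed by -0.35 (adjusted p = 0.446), and the others by -1.22 and -1.33. Tcf21 averaged 6.19 at E13.5 and Hand2 6.94, both below E12.5.

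Of 42 matrix genes 1 was lower, Col18a1, the basement membrane collagen that yields endostatin, with 7.62 and 7.38 at E12.5, against 8.76 and 8.41 at E11.5. Its change of -1.08 ± 0.22 came to -0.97 without E12.5 array 2 and -0.91 without E11.5 array 1. Col1a1, a chain of type I collagen, changed by -0.45 (adjusted p = 0.0402) and Fn1, fibronectin, by -0.86 (adjusted p = 0.0147), each below 2-fold, and a dimmer set of each was above 0 (0.19 and 0.39).

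Endothelial genes held no call among 24, yet 9 of them were lower and none higher at an adjusted p under 0.05 alone (beside 12.7% of all genes). Pecam1, the adhesion protein CD31, read 5.28 and 5.30 at E12.5 and 5.98 and 5.91 at E11.5 (-0.66 ± 0.13, adjusted p = 0.00246). Stab2, a scavenger receptor of liver sinusoids, differed by -0.25 (adjusted p = 0.307). The summed intensity of the list was 2860 and 2725 at E12.5, against 3591 and 3424 at E11.5, and its median change was -0.28, or -0.21 under quantile normalization.

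Early blood and immune lists are read beside the 1.71% higher and 1.04% lower of all genes. At these shares a list of about 20 genes without a call is near what all genes gave. No gene of 23 stem and progenitor genes was called, and Myb, a factor of progenitors, changed by -0.52 (adjusted p = 0.142). Of 20 megakaryocyte genes 2 were lower (10%, beside 1.04% of all genes): Gp5 and Gp1bb, subunits of the platelet receptor for von Willebrand factor. Gp5 read 6.89 and 6.54 at E12.5, against 7.88 and 7.86 at E11.5, and its -1.15 became -0.97 without E12.5 array 2. Gp1bb, at -1.04, became -0.94 without that array and -0.998 without E11.5 array 2. Pf4 and Ppbp, the brightest members, changed by -0.16 and 0.32. Of 26 macrophage genes 1 was lower (3.85%, beside 1.04% of all genes). This was C1qb, a chain of complement C1q, with 6.88 and 6.57 at E12.5, against 8.07 and 8.22 at E11.5 (-1.42 ± 0.17, adjusted p = 5.86e-05). Its other sets gave -0.62 and -0.52. Csf1r, the receptor of macrophage growth, differed by -0.41 (adjusted p = 0.0709) and Mpo, a granulocyte enzyme, by -0.68. No granulocyte gene of 20 or lymphocyte gene of 17 was called.

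Secreted signals of the liver niche moved in both directions, 2 higher and 2 lower of 32 (6.25% each, beside 1.71% and 1.04% of all genes). Igf1, insulin-like growth factor 1, read 8.40 and 8.31 at E12.5, against 6.50 and 6.57 at E11.5 (3.53-fold, adjusted p = 7.61e-06). Its other sets gave 1.85, 0.67 and -0.16. Its level in later fetal pools was 6.74 at E13.5 and 7.88 at E14.5. Kitl, the ligand of the KIT receptor, read 9.25 and 8.65 at E12.5, against 7.61 and 7.97 at E11.5, and its 1.16 ± 0.23 became 0.86 without E12.5 array 1 and 0.98 without E11.5 array 1. Tgfb1, transforming growth factor beta 1, read 7.54 and 7.39 at E12.5, against 9.13 and 9.01 at E11.5 (-1.61 ± 0.16, adjusted p = 1.57e-05), and E11.5 lay 1.54 log2 units above its next highest stage. Vegfb, a vascular growth factor, read 6.03 and 5.82 at E12.5, against 7.36 and 7.06 at E11.5 (-1.28). Igf2 and Cxcl12, the brightest of the members not called, changed by -0.26 and -0.18.

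The iron genes Tfrc and Ireb2, which encodes an iron-sensing RNA-binding protein, were the 2 higher of 18 (11.1%, beside 1.71% of all genes). Ireb2 rose 2.30-fold. Fth1, the ferritin heavy chain, read 12.46 and 12.52 at E12.5 and 12.89 and 12.88 at E11.5 (-0.40 ± 0.15, adjusted p = 0.0764).

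The enzymes of glycolysis, which turn glucose into lactate, were lower in 2 cases. Pkm, pyruvate kinase, read 10.31 and 9.65 at E12.5, against 11.36 and 11.12 at E11.5, and its -1.26 ± 0.20 became -0.93 without E12.5 array 2. Pgam1, phosphoglycerate mutase, read 9.59 and 9.25 at E12.5, against 10.70 and 10.53 at E11.5 (-1.20 ± 0.21, adjusted p = 0.00113). Of 28 glycolysis and low oxygen genes these 2 were lower and none was higher, with a median of -0.43, and 3 of the 28 changes were above 0. At an adjusted p under 0.05 alone 12 were lower and 1 was higher, beside 12.7% lower and 5.77% higher of all genes. Under equal housekeeping levels that median was -0.24 and under quantile normalization -0.30. Ldha and Gapdh, the brightest of the list, changed by -0.49 and -0.41 and were not called.

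Among the 15 largest called falls were Srm, the enzyme that makes spermidine, and Adsl, an enzyme of purine synthesis. Srm read 10.12 and 9.73 at E12.5, against 11.44 and 11.23 at E11.5 (-1.42 ± 0.20, adjusted p = 0.000211). Adsl read 6.94 and 6.54 at E12.5, against 8.28 and 8.35 at E11.5 (-1.57 ± 0.18, adjusted p = 5.16e-05). Both were lower on each E12.5 array than on either E11.5 array. Prmt5, an arginine methyltransferase, and Mbd3, a subunit of a chromatin remodeller, changed by -1.39 and -1.40. Csrp2, a LIM-domain protein, had the largest fall, with 7.55 and 7.01 at E12.5, against 9.00 and 8.96 at E11.5 (-1.70 ± 0.21, adjusted p = 8.23e-05). Arpc4, a subunit of the actin-nucleating Arp2/3 complex, fell by 1.67 and Sdf2l1, a protein of the endoplasmic reticulum, by 1.62. Cyba, a subunit of the phagocyte oxidase, fell by 1.45, Pafah1b3 by 1.48, Hsd11b2, which inactivates glucocorticoids, by 1.39, and Yif1b by 1.40. Plac8 changed by -1.42 ± 0.32, with an adjusted p of 0.0667 without E12.5 array 2.

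Of 23 oncofetal genes Mdk, the growth factor midkine, and Sox11, a factor of embryonic tissues, were lower (8.7%, beside 1.04% of all genes). Mdk read 9.98 and 9.72 at E12.5, against 11.22 and 11.10 at E11.5 (-1.31 ± 0.14, adjusted p = 3.45e-05). Sox11 read 7.92 and 7.38 at E12.5, against 8.92 and 8.99 at E11.5 (-1.30 ± 0.18, adjusted p = 0.000146). Their means at E13.5 were 7.39 and 6.09. Nnat, an imprinted gene active in the embryo, read 7.93 and 7.47 at E12.5, against 9.15 and 9.06 at E11.5 (-1.40 ± 0.14, adjusted p = 1.59e-05). Hmga2, a chromatin protein of embryonic cells, changed by -0.57 ± 0.16 (adjusted p = 0.0177) on its brightest set, below 2-fold, and by -1.08 on another.

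Markers of neighbouring tissues were measured in the same pools. Of 23 heart and muscle genes Actc1, cardiac actin, was higher, with 8.06 and 7.77 at E12.5, against 6.13 and 6.30 at E11.5 (3.25-fold, adjusted p = 1.51e-06). The summed intensity of that list was 1350 and 1364 at E12.5, against 1139 and 1127 at E11.5, and 19 of its 23 genes lay below the median gene. Most of the rise in that sum was Actc1 itself. The median change of the list was 0.09, beside -0.04 over all genes. Of 23 gut, pancreas and lung genes Barx1, a factor of stomach mesenchyme, was lower, with 5.53 and 5.19 at E12.5, against 6.47 and 6.65 at E11.5. That list summed to 1690 and 2084 at E12.5, against 1777 and 1879 at E11.5. Of 23 neuronal genes Tubb2b, a tubulin of young neurons, was lower by 1.12, with -0.84 without E12.5 array 2. The neuronal list summed to 4850 and 4102 at E12.5, against 6265 and 5524 at E11.5. Most of each sum was 1 gene, Stmn1, which read 11.83 and 11.52 at E12.5 and 12.16 and 11.93 at E11.5 (-0.37, adjusted p = 0.277, limma). Of the 23 genes 19 lay below the median gene. Over all genes the sums were 4667174 and 3992326 at E12.5, against 4943926 and 4585896 at E11.5, also lower. Alcam, an adhesion protein in the mesothelial list of 15, changed by 1.03 ± 0.11, with 0.98 without E12.5 array 1 and 0.94 without E11.5 array 1, and Wt1, the mesothelial transcription factor, by 0.33 (adjusted p = 0.0947). The part of neighbouring tissue in these values was not tested.

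Among 25 immediate early genes, a list that responds to handling of tissue, Ier2 was lower, with -0.90 without E12.5 array 2 and -0.93 without E11.5 array 1, and Jund and Myc changed by -0.57 and -0.62 without a call. Of 25 Hox and axial patterning genes none was called. Of 16 housekeeping genes Gusb was lower by 1.11, with -0.96 without E12.5 array 2, Tfrc was higher, and Actb and Eef1a1 changed by -0.22 and -0.12.

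**Figure D4:**
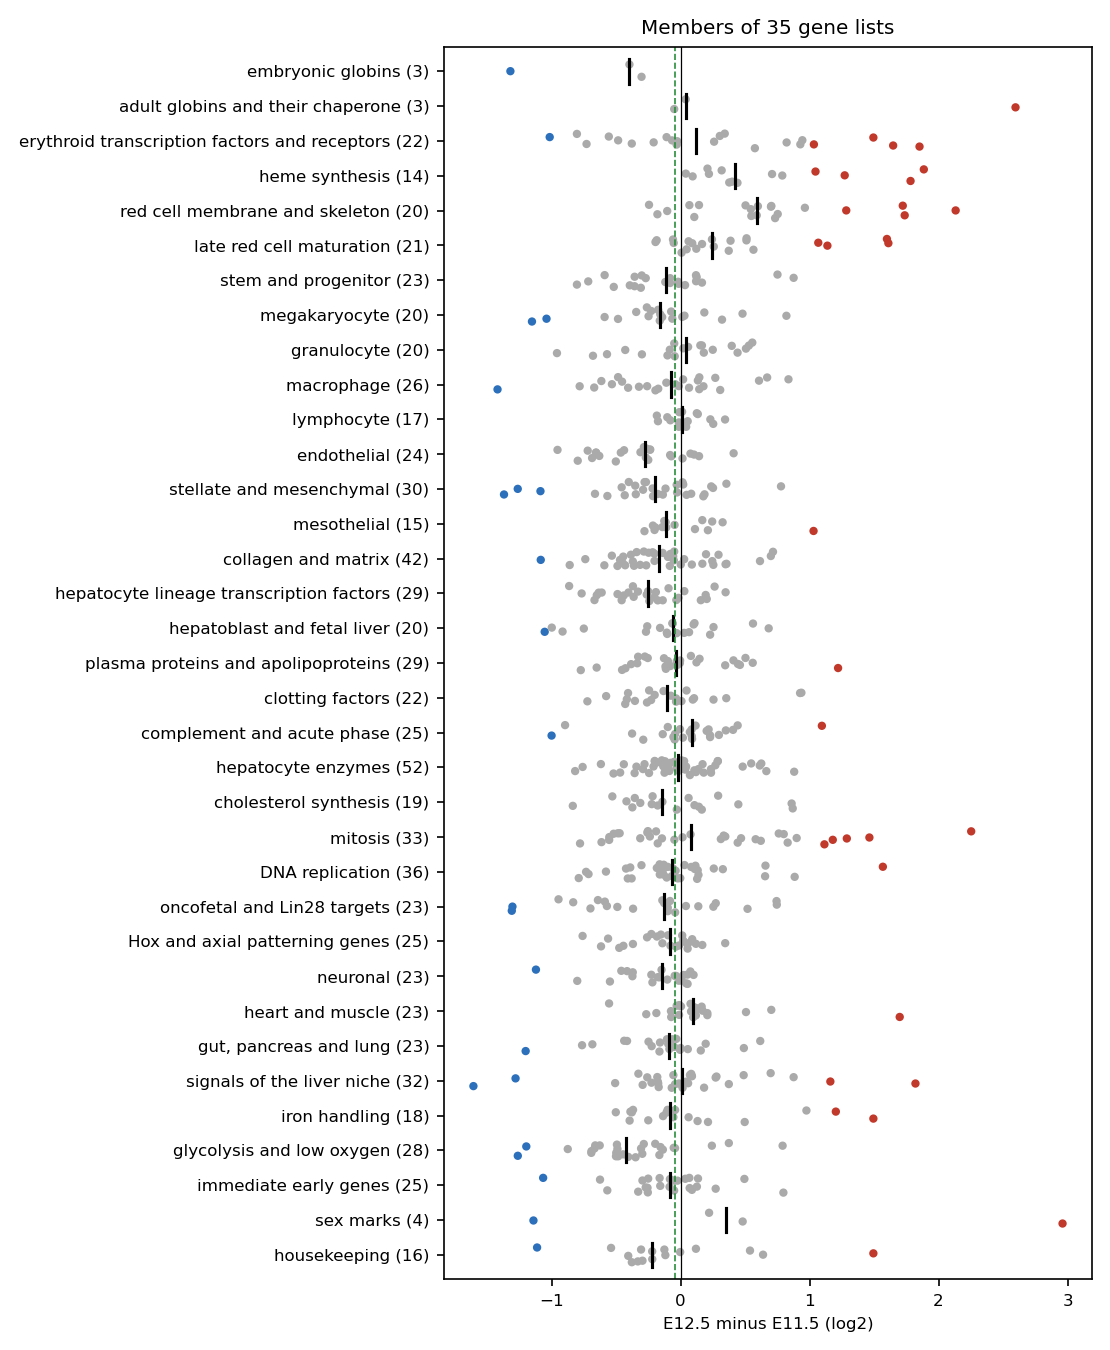
Each row is a gene list with its number of measured genes, each point is a member placed by E12.5 minus E11.5 (log2; vertical position within a row is scatter only), black bars are list medians and the dashed line is the median of all genes. Red and blue points were called higher and lower, and the heme and membrane lists have medians of 0.42 and 0.59.

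The change over this day was also set against the daily change later, the difference between the E17.5 and E13.5 pools divided by the 4 days between them. The difference of the 2 was called for 601 genes (3.3%), 339 in which the step to E12.5 lay above the later daily change and 262 in which it lay below. Of the 339 genes 285 were also called higher in the step itself, and of the 262 genes 137 were also called lower. Both comparisons contain the same step. The later daily change is a mean over 4 days, in which a jump within a single day is spread out. Epb42 changed by 2.13 in this step, against a later daily change of 0.03, and Kel by 1.74 against -0.01. Hba-x changed by -1.32, against a later daily change of -0.92, and Hbb-y by -0.30 against -1.16. Slc4a1 averaged 12.05 at E12.5 and lay between 12.16 and 12.51 from E13.5 to E18.5, while Alas2, at 10.39, lay between 11.27 and 11.97.

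**Figure D5:**
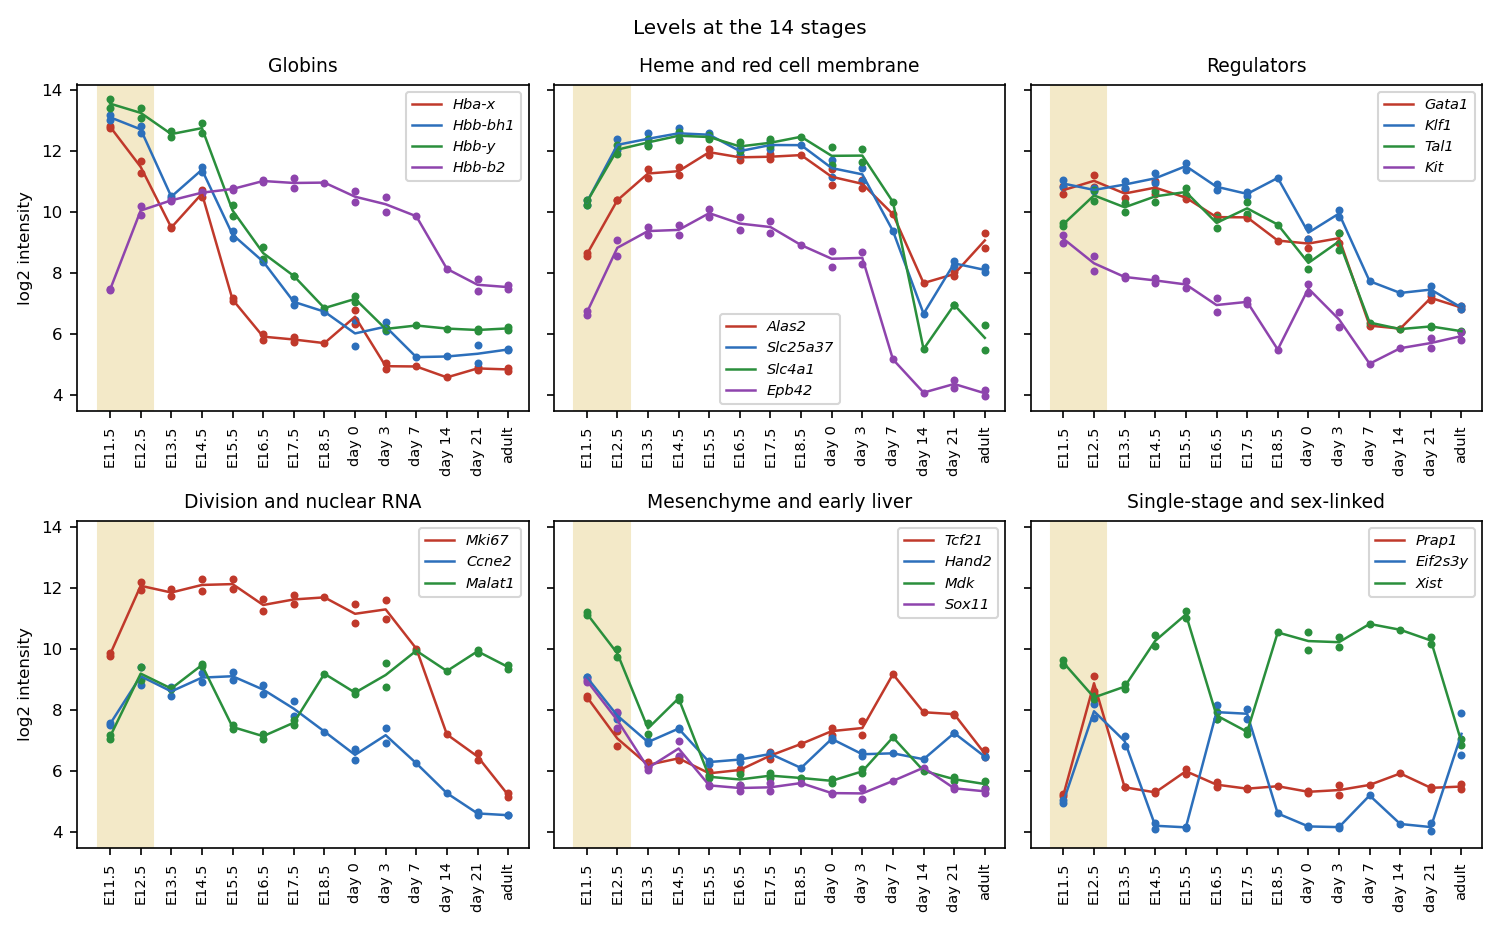
Levels of named genes (log2 intensity) at the 14 stages in order, in 6 panels, with points for arrays, lines through the stage means and the stages compared here shaded. Hbb-b2, Alas2, Slc4a1 and Mki67 are lower at E11.5 than in any later fetal pool, embryonic globins decline to E18.5 with E14.5 above E13.5, and Prap1 is high at E12.5 alone.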

How the data were processed

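Per the labels' protocols, total RNA of pooled livers was reverse transcribed from oligo(dT), labelled with biotin and hybridised to 1-colour arrays, and per the submitters' processing notes RMA (background correction, normalization and summary of probes) was used; the sources used here give no version. The authors deposited 1 table of 45101 probe sets on 25 arrays with linear intensities, not log2 values, and without detection calls; the log2 was taken with no pseudocount. Array medians lay between 5.41 and 5.53 log2 units. Of the sets 34958 carried 1 gene symbol, 932 several and 9211 none. Each of 18194 genes was read from its single-symbol set with the highest mean.

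1 mean per stage was fitted over all 25 arrays with limma 3.58.1 (lmFit and eBayes, R 4.3.3; 11 residual degrees of freedom), since 2 arrays a stage alone estimate the spread poorly, and the contrast E12.5 minus E11.5 was taken, with p-values adjusted over all genes. Repeat arrays differed by a standard deviation of 0.119 at E11.5 and 0.180 at E12.5. In simulated data with 200 changed genes for this comparison (18194 genes), 94.5% of 2-fold and 100% of 4-fold changes reached the adjusted p. Of the genes that reached it 6.9% and 2.44% were false. The 2-fold threshold of a call was not applied there, and the noise was drawn independently, without shifts of a whole array. These shares therefore do not describe the calls given here.

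The stages compared, the 35 gene lists (805 of 877 entries measured) and the naming rule were chosen with earlier results of these data known. The rule names the 15 largest called changes per direction, up to 6 called and 2 other bright members of each list, and a set of genes in any case; exceptions are stated. Alternatives covered scaling, choice of probe set, dim genes, intensity trend, arrays fitted, a replicate block, each array left out, thresholds and a pseudocount of 32; a trend with genomic span was added after seeing the data. Tables and figures used Python 3.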

Additional observations from a re-analysis of the deposited data

Results flagged for a closer look

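For 5 of the genes named in any case, the step to E12.5 differed from the daily change between E13.5 and E17.5 by at least 1 log2 unit in a test of the difference itself (limma, adjusted over all genes). Mki67 exceeded its later daily change by 2.31 ± 0.24 log2 units (SE, adjusted p = 2.21e-05), with 2.25 in the step against -0.06 a day later. Slc4a1 exceeded it by 1.73 ± 0.25 (adjusted p = 0.000231) and Alas2 by 1.65 ± 0.19 (adjusted p = 5.41e-05). For Hemgn the excess was 1.60 ± 0.22 (adjusted p = 0.000195) and for Tfrc 1.58 ± 0.24 (adjusted p = 0.000378). All 5 had both E12.5 arrays above both E11.5 arrays. The test contains the same step that was called above, and the later daily change of these 5 genes lay between -0.08 and 0.14. The excess therefore largely repeats the step and is no separate evidence for it. Each stage is 1 pool, so the test covers array-to-array spread only.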

How the results depend on the processing

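The number of genes higher at E12.5 than at E11.5, 312, became 509 under equal housekeeping levels, 155 with the mean of all probe sets of a gene, 199 with a pseudocount of 32 and 13 at a threshold of 2 log2 units. The number of lower genes, 190, became 75 under quantile normalization, 109 under equal 75th percentiles, 73 under equal housekeeping levels, 121 with the mean of probe sets, 103 with the pseudocount and 0 at 2 log2 units (limma; 2313 genes were lower at an adjusted p under 0.05 alone). Leaving out 1 array at a time gave 193 to 486 higher and 105 to 360 lower genes. Of the called genes 62.2% were higher, and 82.6% under quantile normalization, 79% under equal 75th percentiles, 87.5% under equal housekeeping levels, 34.9% without E12.5 array 1 and 82.2% without E12.5 array 2. With the fold alone and no test 313 and 191 genes passed, so the test removed few. The replicate block gave 313 and 191. Deviations of E12.5 and E11.5 arrays with the same number correlated at 0.147, and 38 of 55 pairs of stages exceeded 0.1, up to 0.73, while the lowest was -0.573; as pairing was to require every pair above 0.1, the numbers were not used as pairs, although many arrays of a number deviated together. The 16 higher red cell genes became 12 to 21, and the 601 genes whose step differed from the later daily change became 542 to 649. Of 77 called genes that the naming rule admits, 44 kept their call and direction in all settings in which they were measured and 33 lost it in at least 1, most often with the mean of probe sets (18) and the pseudocount (16); Hbb-b2 turned to -0.41 without sets of shared probes. The cause was not tested. Dim genes, such as the adult alpha globin sets, limit what can be read, since no detection calls were used.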
